A study of Mus musculus with 6 samples.

Results

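Glycolysis and hypoxia target genes, 33 in all, were followed by symbol in induced regulatory T cells (iTregs) that could or could not lose Dlst, out of 21899 genes listed. They were chosen by name, with earlier results of these data known. The set held 23 genes of glucose uptake, glycolysis and the pyruvate and lactate branch, and 10 genes of the hypoxia response. All 33 were found, and all had enough counts to be tested. Aldoa carried 2 identifiers, of which the one with 201435 summed counts was kept over the one with 53. Bulk RNA was sequenced from 3 libraries of the group labelled WT (iWT mice) and 3 of the group labelled KO (Dlst-Treg iKO mice). The Dlst protein is the succinyltransferase core of the 2-oxoglutarate dehydrogenase complex, which makes succinyl-CoA in the TCA cycle. In both groups splenic CD4+ T cells were grown for 2 days under Treg polarisation with 4-hydroxytamoxifen, which switches on inducible forms of Cre recombinase, and cells positive for CD4, FoxP3-GFP and tdTomato were sorted. The controls thus carried the same drug, polarisation and sort. The sources used here do not give the promoter that drives recombination, the strain, the age or the oxygen level of the cultures. Whether each library stands for its own animal or culture is not said either, so a p-value speaks only of the spread among these 6 samples, which may be technical. The comparison asked whether the glycolytic and hypoxia programmes differ when Dlst can be deleted.

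Glycolysis turns glucose into pyruvate in the cytosol, and activated T cells send much of that pyruvate on to lactate. Hypoxia-inducible factor 1, made of the HIF-1 alpha protein encoded by Hif1a and its partner ARNT, drives many of these genes when oxygen is low. The prolyl hydroxylases that mark HIF-1 alpha for destruction use 2-oxoglutarate and release succinate, and both of these metabolites lie next to the step that Dlst serves. In T cells glycolysis and HIF-1 alpha are known to favour effector and Th17 cells over Treg cells.

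HIF binds DNA at the short core ACGTG or GCGTG. The promoter windows that follow, each of 300 bases around a RefSeq start site (GRCm38.p6, all on the plus strand), are shown for a glucose transporter, a pair of glycolytic enzymes, the pyruvate dehydrogenase kinase Pdk1, whose libraries split most, and Hif1a itself. Capitals mark each match to ACGTG or GCGTG on either strand, so a match on the minus strand is printed as CACGT or CACGC.
Slc2a1 promoter, chr4:119108495-119108794: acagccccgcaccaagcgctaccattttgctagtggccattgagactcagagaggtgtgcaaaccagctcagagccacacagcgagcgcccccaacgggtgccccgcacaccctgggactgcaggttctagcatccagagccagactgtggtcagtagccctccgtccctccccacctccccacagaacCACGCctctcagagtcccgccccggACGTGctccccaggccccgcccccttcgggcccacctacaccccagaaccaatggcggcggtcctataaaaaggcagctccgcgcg
Pgk1 promoter, chrX:106186850-106187149: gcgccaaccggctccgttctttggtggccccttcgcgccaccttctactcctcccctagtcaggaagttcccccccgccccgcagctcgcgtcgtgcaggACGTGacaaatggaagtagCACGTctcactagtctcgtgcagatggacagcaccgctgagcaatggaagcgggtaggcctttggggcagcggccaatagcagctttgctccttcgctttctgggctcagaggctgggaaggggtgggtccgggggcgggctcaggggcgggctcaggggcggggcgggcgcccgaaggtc
Ldha promoter, chr7:46845554-46845853: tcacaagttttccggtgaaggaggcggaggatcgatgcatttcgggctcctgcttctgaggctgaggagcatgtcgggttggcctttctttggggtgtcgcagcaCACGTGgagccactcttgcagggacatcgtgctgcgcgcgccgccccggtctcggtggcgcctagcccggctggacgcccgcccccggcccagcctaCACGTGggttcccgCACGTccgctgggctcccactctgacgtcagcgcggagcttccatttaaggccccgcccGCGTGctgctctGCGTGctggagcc
Pdk1 promoter, chr2:71872974-71873273: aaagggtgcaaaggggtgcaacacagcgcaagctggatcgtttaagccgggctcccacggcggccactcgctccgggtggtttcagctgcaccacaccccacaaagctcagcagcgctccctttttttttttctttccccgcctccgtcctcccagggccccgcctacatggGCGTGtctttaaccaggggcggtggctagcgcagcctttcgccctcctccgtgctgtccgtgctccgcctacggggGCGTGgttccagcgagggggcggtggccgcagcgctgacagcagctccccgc
Hif1a promoter, chr12:73907617-73907916: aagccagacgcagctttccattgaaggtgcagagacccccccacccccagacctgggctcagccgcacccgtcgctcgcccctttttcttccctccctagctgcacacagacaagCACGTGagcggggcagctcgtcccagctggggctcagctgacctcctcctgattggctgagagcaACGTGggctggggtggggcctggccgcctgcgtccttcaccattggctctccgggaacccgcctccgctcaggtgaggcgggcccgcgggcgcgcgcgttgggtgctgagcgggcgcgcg
RefSeq windows matched 30 of the 33 genes, and Slc2a3, Ndrg1 and Bhlhe40 had no entry. At least 1 such match stood in a window of 27 of the 30 genes, against 46.7% of all 27025 genes with a window and 66.8% of the 9984 genes with a window that were tested for expression. Counted by window the shares were 78.7% of 47 and 61.1% of 12720. The median window held 20 CG pairs in both sets. The Ldha window held 7 matches, of which 4 come from 2 copies of CACGTG, a palindrome that contains the core on both strands and is also the E-box bound by MYC and by the products of Mxi1 and Bhlhe40. CACGTG stood in a window of 5 of the 30 genes (16.7%), against 11.5% of tested genes. A match describes these letters and is not evidence of binding.

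The libraries held from 33590510 to 49772670 estimated counts. T cell and Treg markers summed to between 3249 and 3384 TPM (transcript counts scaled by gene length and by the library total) in the 6 libraries, and Cd3e, Cd4 and Foxp3 were present in each. Of these 8 markers, Foxp3 and Trac were higher in every KO library than in every WT library, and Cd3d and Cd4 were lower. Groups thus did not overlap for 50.0% of them, against 22.8% of all tested genes. Dlst itself was at 161, 149 and 149 CPM (library-scaled counts, without gene length) in the 3 WT libraries and at 125, 129 and 129 CPM in the 3 KO libraries (log2 fold change -0.26, SE 0.05, edgeR adjusted p = 0.0894). Most of the Dlst counts were thus still present. Counts per gene do not show whether the remaining Dlst mRNA was intact. Replicate 1 of each group stood apart from the others. The Y-linked genes Ddx3y and Eif2s3y were at 80.8 and 82.4 CPM in KO replicate 1 and at no more than 0.0257 CPM elsewhere. The sex of the cells was thus not the same across the KO libraries. Neutrophil markers (9 genes) summed to 89.99, 19.7 and 12.8 TPM in WT and to 859, 202 and 189 TPM in KO, and monocyte and macrophage markers (8 genes, of which Mrc1, C1qa and Ccr2 stayed under 1 TPM) to between 23.9 and 36.7 TPM in WT and to 460, 117 and 131 TPM in KO. B cell markers (6 genes) summed to 82.6 TPM in WT replicate 1 and to between 13.3 and 29.7 TPM in the other 5 libraries. CD8 and NK markers (7 genes) summed to 51.7, 60.4 and 36.0 TPM in WT and to 80.5, 68.4 and 71.3 TPM in KO. Dendritic markers (5 genes, 4 of them under 1 TPM throughout) summed to 2.41, 2.72 and 2.11 TPM in WT and to 5.17, 3.62 and 3.83 TPM in KO. Erythroid markers (6 genes) summed to at most 2.89 TPM in any library. Proliferation genes (8) were highest in WT replicate 1, at 1784 TPM, and lowest in KO replicate 1, at 1382 TPM. In bulk RNA, fewer cells of a type and less RNA per cell cannot be told apart.

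No gene of the set passed the test between KO and WT. By the quasi-likelihood test of edgeR, with p-values adjusted by Benjamini-Hochberg over 12768 tested genes, 0 of 33 were called at 0.05, where 0.674% of all tested genes were called (0.454% higher and 0.219% lower in KO). The smallest adjusted p was 0.215, for Hk1. At an unadjusted p under 0.05 there were 3, Hk1, Slc2a1 and Car12, all lower in KO, which is 9.09% of the set against 15.1% of all tested genes. DESeq2 also called 0 of 33, where it called 3.02% of its tested genes. Limma called 0 of 33 on log2(TPM + 1), with 0.305% of all tested genes called, and 0 of 33 on log2(TPM + 0.1), with 0.634%. With the replicate number as a block the fit called 177 genes in place of 86 (1.39%), again with 0 of the set. The number of calls over all genes depended on which library was left out. Without WT replicate 2 or WT replicate 3 there were 27 or 16 calls, and without KO replicate 2 or KO replicate 3 there were 10 or 4. Without WT replicate 1 or KO replicate 1 there were 93 or 82, near the 86 of the main fit. The set held 0 calls in each of these fits.

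Although no gene passed, 25 of the 33 log2 fold changes were below 0, against 50.9% of all tested genes, and the median was -0.17 against -0.00. The shift had the size of the spread between libraries: without WT replicate 1 the median of the set was 0.015. Groups that did not overlap were seen for 2 of 33 genes (6.06%), Hk1 and Car12, against 22.8% of all tested genes. The model's 95% interval lay within 1.5-fold in either direction for 22 of the 33 genes and within 2-fold for 31, the exceptions being Adm and Pdk1.

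**Figure D1:**
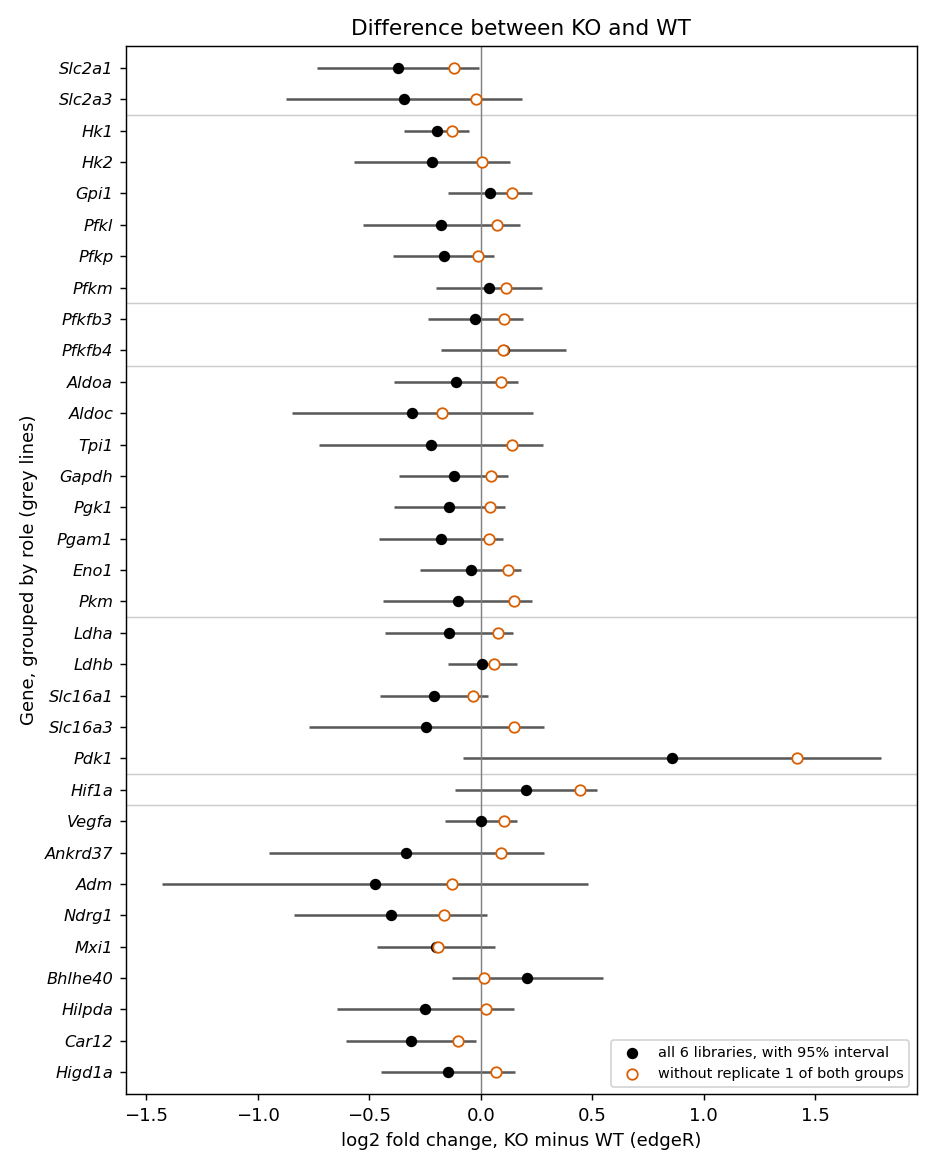
Log2 fold change of KO minus WT for the 33 genes, grouped by role, from edgeR. Black points with lines are estimates with 95% intervals over all 6 libraries, and open orange points are estimates without replicate 1 of both groups. Most black points lie below 0, with 30 of 33 intervals crossing it, and 15 of 33 genes change sign when both replicate 1 libraries are left out.

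Of the glucose transporters, Slc2a1 encodes GLUT1, the main glucose importer of activated T cells. Slc2a1 was at 161, 138 and 118 CPM in WT and at 86.8, 123 and 112 CPM in KO. Its lowest value was in KO replicate 1, while KO replicate 2 lay above WT replicate 3, so the groups overlapped. The mean ± SD over 3 libraries was 139 ± 21.5 CPM in WT and 107 ± 18.6 CPM in KO, a log2 fold change of -0.37 (SE 0.15, 95% interval -0.73 to -0.01, edgeR adjusted p = 0.323). Without replicate 1 of both groups the difference was -0.12 (edgeR adjusted p = 0.528). Slc2a3, which encodes the high-affinity transporter GLUT3, was at 46.1, 34.9 and 24.2 CPM in WT and at 24.5, 29.6 and 28.6 CPM in KO. Its WT libraries alone spanned the whole range of the KO libraries. The Slc2a3 log2 fold change was -0.35 (SE 0.22), and -0.02 without replicate 1 of both groups.

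Hexokinases trap glucose in the cell as glucose 6-phosphate. Hk1, the constitutive form, was at 236, 226 and 206 CPM in WT and at 187, 195 and 200.1 CPM in KO. Every KO library lay below every WT library, by a small step. Its means were 223 ± 15.1 and 194 ± 6.62 CPM (SD, n = 3 each), with a log2 fold change of -0.20 (SE 0.06, 95% interval -0.34 to -0.05, edgeR adjusted p = 0.215), or -0.13 without replicate 1 of both groups. Hk2, the inducible form and a HIF target, was at 93.9, 67.4 and 62.5 CPM in WT and at 61.7, 68.3 and 62.1 CPM in KO. Only WT replicate 1 stood out, and the other 5 libraries lay within 61.7 to 68.3 CPM. The Hk2 log2 fold change was -0.22 (SE 0.15) with all libraries and 0.00 without replicate 1 of both groups.

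Gpi1, which encodes glucose phosphate isomerase, was at 550.1, 467 and 441 CPM in WT and at 499.9, 496 and 504 CPM in KO. Its KO libraries agreed closely and lay inside the WT range (log2 fold change 0.04, SE 0.08). The phosphofructokinase subunits commit sugar to glycolysis. Pfkp, the platelet-type subunit and the most abundant of the 3 subunits in TPM, was at 316, 288 and 253 CPM in WT and at 227, 271 and 265 CPM in KO (log2 fold change -0.17, SE 0.10). Pfkl, the liver-type subunit, had 171, 127 and 113 CPM in WT and 112, 127 and 125 CPM in KO. Apart from WT replicate 1 its libraries lay within 112 to 127 CPM. Pfkm, the muscle-type subunit, ranged from 12.6 to 15.6 CPM over all 6 libraries. Among the bifunctional enzymes that set the level of the PFK activator fructose 2,6-bisphosphate, Pfkfb3 ranged from 66.2 to 84.9 CPM (log2 fold change -0.02, SE 0.09) and Pfkfb4 from 5.56 to 6.87 CPM (log2 fold change 0.10, SE 0.12).

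The 8 genes of lower glycolysis, from aldolase to pyruvate kinase, all had log2 fold changes below 0, from -0.31 to -0.05, and none passed. Gapdh, which encodes glyceraldehyde phosphate dehydrogenase and was the most abundant of the 33 in TPM, was at 2388, 1914 and 1790.1 CPM in WT and at 1777, 1954 and 1866 CPM in KO (log2 fold change -0.12, SE 0.10, edgeR adjusted p = 0.624). WT replicate 1 was well above the rest, and KO replicates 2 and 3 lay between WT replicates 2 and 3 or above both. Tpi1, which encodes triose phosphate isomerase, had the widest spread of the abundant enzymes, with 486, 306 and 285 CPM in WT and 271, 338 and 316 CPM in KO. Its highest value was 1.79 times its lowest, and without replicate 1 of both groups its log2 fold change went from -0.22 to 0.14 (SE 0.05, edgeR adjusted p = 0.203). Pkm, the pyruvate kinase gene, was at 1476, 1065 and 1036 CPM in WT and at 999 CPM in KO replicate 1, against 1180.4 and 1148 CPM in KO replicates 2 and 3. Pkm thus went from -0.10 (SE 0.14) to 0.15 (SE 0.04, edgeR adjusted p = 0.0968). The same change of sign without replicate 1 of both groups was seen for Gapdh (-0.12 to 0.04), Aldoa (-0.11 to 0.09), Pgk1 (-0.14 to 0.04), Pgam1 (-0.18 to 0.04) and Eno1 (-0.05 to 0.12). It was not seen for Aldoc, an aldolase typical of brain that stood at 2.45 to 4.47 CPM (-0.31 to -0.17).

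Lactate dehydrogenase A favours the making of lactate from pyruvate. Ldha was at 1721, 1360 and 1345 CPM in WT and at 1154, 1458 and 1394 CPM in KO. The extremes were again the replicate 1 libraries, and KO replicates 2 and 3 were slightly above WT replicates 2 and 3. Its means were 1475 ± 213 and 1335 ± 160.2 CPM (SD, n = 3 each), and the difference was -0.14 on the log2 scale (SE 0.12, edgeR adjusted p = 0.622). Ldhb, the heart-type subunit, varied little, with 29.0, 27.3 and 25.1 CPM in WT and 27.0, 27.0 and 27.5 CPM in KO (log2 fold change 0.01, SE 0.07). Of the lactate carriers, Slc16a3 (MCT4, the exporter that hypoxia induces) was at 108, 68.2 and 63.0 CPM in WT and at 56.3, 74.5 and 71.0 CPM in KO. Slc16a1 (MCT1) was at 139, 113 and 122 CPM in WT and at 94.0, 118 and 111 CPM in KO. Neither carrier passed, with log2 fold changes of -0.24 (SE 0.22) and -0.21 (SE 0.10).

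Pdk1 encodes a kinase that shuts pyruvate dehydrogenase off and so keeps pyruvate out of the TCA cycle, and it is a textbook HIF target. It had the largest difference of the set and an unlike pattern: 32.0, 21.2 and 20.3 CPM in WT against 22.3, 54.7 and 56.1 CPM in KO. KO replicate 1 lay with the WT libraries, and KO replicates 2 and 3 were each above the other 4 libraries. The Pdk1 log2 fold change was 0.86 (SE 0.38, 95% interval -0.08 to 1.79, edgeR adjusted p = 0.367). Without KO replicate 1 it was 1.18 (edgeR adjusted p = 0.0619), and without replicate 1 of both groups, a setting chosen after seeing the data, 1.42 (SE 0.055, edgeR adjusted p = 2.45e-05). In that fit of 2 libraries against 2, 538 of 12782 genes were called (4.21%), 311 of them higher in KO (2.43%), among them 2 of the 33, Pdk1 and Hif1a. KO replicates 2 and 3 differed least of all pairs within a group, with a biological coefficient of variation of 2.97% against 7.12 to 14.8% in the other pairs, so this fit has little spread to test against. With those libraries summed as 1, also a setting chosen after seeing the data, the Pdk1 difference was 0.67 (edgeR adjusted p = 0.582).

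Position was examined after the Pdk1 values were seen. Pdk1 lies on chromosome 2 from 71873224 to 71903858 on the plus strand in GENCODE M21 on GRCm38, which may differ from the annotation used for counting. Of the 11 other tested genes within 1 Mb, 2 had the same order, with KO replicates 2 and 3 above the other 4 libraries, which held for 7.90% of all tested genes and for 1 of the 33, Pdk1. Metap1d, a mitochondrial methionine aminopeptidase gene 348030 bases upstream, was at 6.44, 6.33 and 5.10 CPM in WT and at 5.79, 10.2 and 10.7 CPM in KO. Rapgef4, 77382 bases downstream, was at 2.50, 1.21 and 1.72 CPM in WT and at 2.64, 3.43 and 3.32 CPM in KO. Itga6, the nearest neighbour at 14808 bases, was at 86.8, 79.8 and 91.4 CPM in WT and at 106, 96.9 and 106 CPM in KO, without that split. The part of position in the Pdk1 values was not tested.

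**Figure D2:**
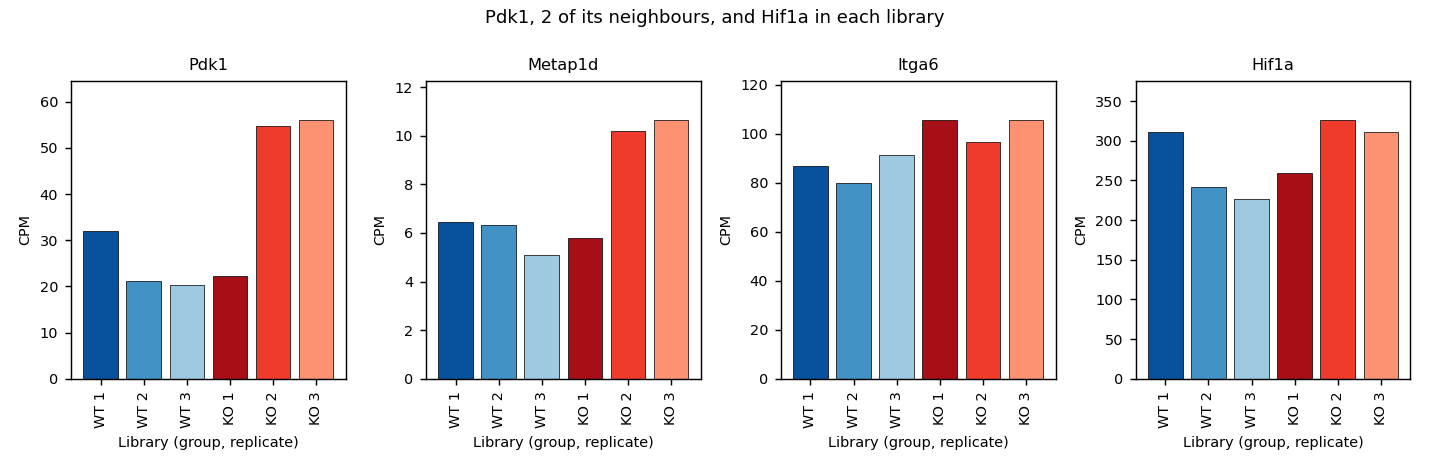
CPM of Pdk1, its neighbours Metap1d and Itga6, and Hif1a in each library, with WT in blue and KO in red. Each bar is 1 library. KO replicates 2 and 3 stand at 54.7 and 56.1 CPM for Pdk1 and at 10.2 and 10.7 CPM for Metap1d, above the other 4 libraries in both, while WT replicate 1 shares the level of KO replicates 2 and 3 for Hif1a.

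Hif1a was at 311, 241 and 227 CPM in WT and at 259.6, 326 and 311 CPM in KO. WT replicate 1 was level with KO replicates 2 and 3, so the groups overlapped. Its means were 259.7 ± 44.9 and 299 ± 34.9 CPM (SD, n = 3 each), a log2 fold change of 0.20 (SE 0.14, edgeR adjusted p = 0.524). Without replicate 1 of both groups, a setting chosen after seeing the data, the Hif1a difference was 0.445 (SE 0.048, edgeR adjusted p = 0.00326). With KO replicates 2 and 3 summed as 1 library, also chosen after seeing the data, the Hif1a difference was 0.15 (edgeR adjusted p = 0.722). Hif1a lies on chromosome 12, 11.2 Mb from Dlst. HIF-1 alpha is controlled mainly as a protein, which was not measured here.

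Of the 9 HIF targets outside glycolysis, 7 had log2 fold changes below 0, and none passed. Car12, a carbonic anhydrase gene, was at 18.0, 14.6 and 14.5 CPM in WT and at 10.8, 13.6 and 13.5 CPM in KO. Its groups did not overlap (log2 fold change -0.31, SE 0.125, edgeR adjusted p = 0.301), and the difference was -0.10 without replicate 1 of both groups. Ndrg1, a stress-responsive gene, was at 31.0, 25.5 and 17.9 CPM in WT and at 17.4, 19.5 and 19.2 CPM in KO (log2 fold change -0.40, SE 0.18). In Ndrg1, as in Slc2a3, WT replicate 3 lay at the KO level.

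Ankrd37, a HIF target of little known function, was at 9.02 CPM in WT replicate 1 and between 4.58 and 4.96 CPM in the other 5 libraries. Hilpda, which acts on lipid droplets, ranged from 10.9 to 17.4 CPM in WT and from 10.3 to 12.8 CPM in KO, and Higd1a, a mitochondrial protein gene, from 47.2 to 66.0 CPM and from 45.3 to 51.7 CPM. In each of these the highest library was WT replicate 1. Vegfa, the angiogenic growth factor, was the flattest gene of the set, at 56.4, 52.5 and 49.5 CPM in WT and 49.1, 55.3 and 54.2 CPM in KO (log2 fold change 0.00, SE 0.07). Adm, the adrenomedullin gene, was close to the limit of detection, with 8 to 19 counts per library, and its log2 fold change of -0.47 had an SE of 0.41.

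Mxi1 and Bhlhe40 encode repressors that bind E-boxes, and their order of libraries was unlike that of the glycolytic genes. Mxi1, an antagonist of MYC, was at 56.4, 72.3 and 65.8 CPM in WT and at 48.8, 61.0 and 59.9 CPM in KO (log2 fold change -0.20, SE 0.11, edgeR adjusted p = 0.457). Within each group replicate 1 was the lowest, and with the replicate block the adjusted p was 0.162. Bhlhe40, which T cells switch on upon activation, was at 128, 194 and 175 CPM in WT and at 202, 190.1 and 182 CPM in KO. WT replicate 1, the highest library for most of the set, was the lowest for Bhlhe40, and the other 5 libraries lay within 175 to 202 CPM. The Bhlhe40 log2 fold change was 0.21 (SE 0.14) and 0.01 without replicate 1 of both groups.

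What the genes shared was an order of libraries. WT replicate 1 was the highest library for 28 of the 33 genes (84.8%, against 24.6% of all tested genes) and KO replicate 1 the lowest for 21 (63.6%, against 26.6%). Both held for 20 genes (60.6%, against 10.0%), among them Slc2a1, Hk1, Gapdh, Pkm and Ldha. The 5 genes not highest in WT replicate 1 were Pfkfb4, Pdk1, Hif1a, Mxi1 and Bhlhe40. Of the 14 enzyme genes from hexokinase to pyruvate kinase, 14 were highest in WT replicate 1 and 11 lowest in KO replicate 1. The 23 other tested glycolysis genes, outside the set, differed. Among them 5 were highest in WT replicate 1 (21.7%) and 12 in KO replicate 1, where 3564 of all 12768 tested genes were highest. The highest in WT replicate 1 and lowest in KO replicate 1 were 4 of these 23 (17.4%). The median deviation of the 33 genes from their own mean log2(CPM + 0.5) was 0.30 in WT replicate 1 and -0.19 in KO replicate 1, while WT replicates 2 and 3 stood at -0.02 and -0.115 and KO replicates 2 and 3 at 0.01 and -0.02. By this median the highest and the lowest library belonged to different genotypes but to the same replicate number. WT replicate 1 stood clearly apart, whereas KO replicate 1 did so less. WT replicate 3, the lowest library for 7 genes, lay nearer to KO replicate 1 than to WT replicate 2.

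**Figure D3:**
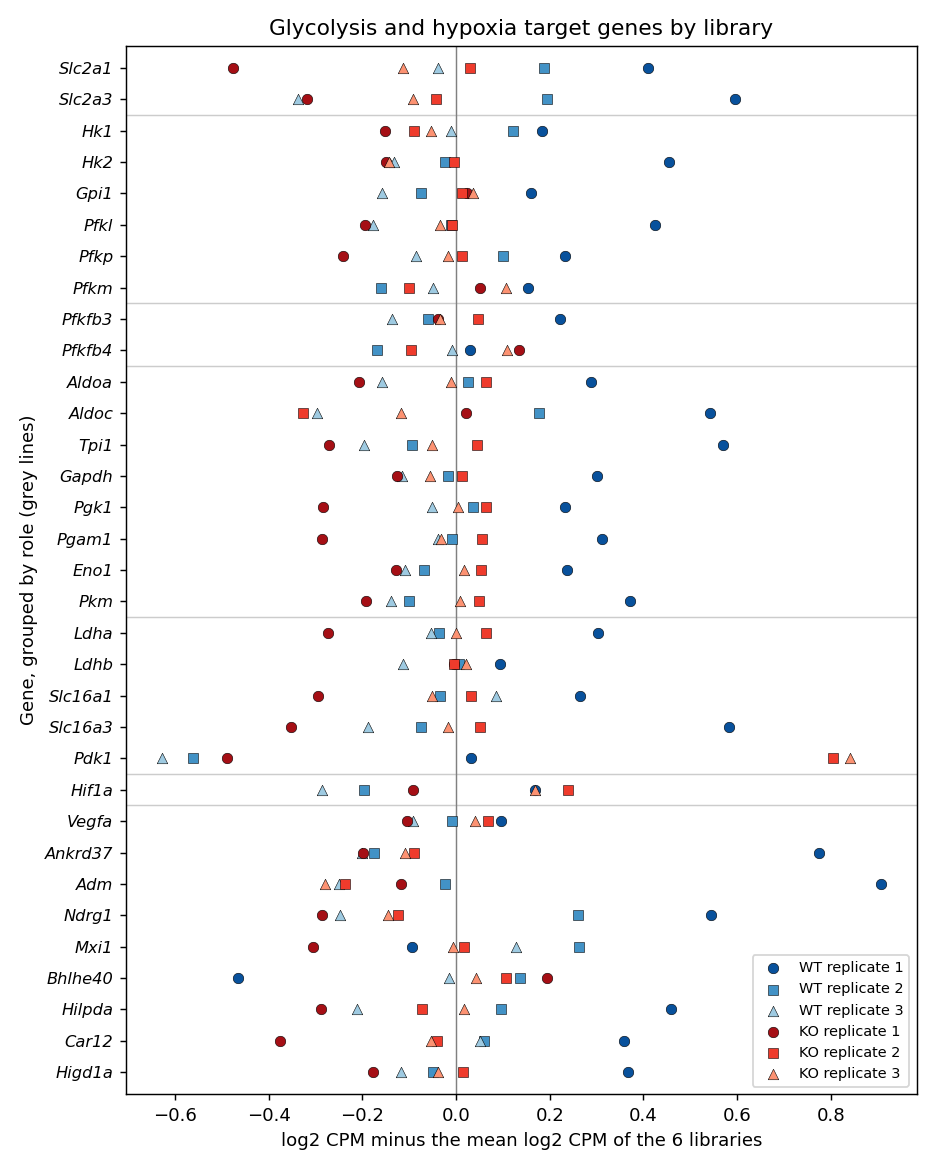
Log2 CPM of each gene in each library minus that gene's mean over the 6 libraries, with WT in blue, KO in red, and replicates 1, 2 and 3 as circles, squares and triangles. Dark blue circles (WT replicate 1) lie furthest right for 28 of 33 genes and dark red circles (KO replicate 1) furthest left for 21. Pdk1 is the gene for which KO replicates 2 and 3 stand apart.

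In the 4 libraries other than replicate 1 the direction was not the same. KO replicates 2 and 3 were both above WT replicates 2 and 3 for 12 of the 33 genes (36.4%, against 25.5% of all tested genes), and both below for 3, Hk1, Mxi1 and Car12 (9.09%, against 24.9%). The median log2 fold change of the set was 0.06 without replicate 1 of both groups, and 23 of 33 genes were then above 0. The part of the cell mixture in this order was not tested. Beside it stand the proliferation genes, of which 4 of 8 were highest in WT replicate 1 (50.0%, against 24.6% of all tested genes). Of the others, 3 were highest in WT replicate 3 and 1, Mki67, in KO replicate 1. KO replicate 1 was the lowest library for 6 of 8 (75.0%, against 26.6%). The neutrophil markers were highest in KO replicate 1.

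Summed over the 14 enzymes, glycolytic mRNA made up 10048, 7877 and 7598 TPM in WT and 7222, 8305 and 8010.4 TPM in KO, from 1.00% of all TPM in WT replicate 1 to 0.722% in KO replicate 1. WT replicate 1 thus held 1.39 times as much as KO replicate 1, and the other 4 libraries lay between 7598 and 8305 TPM. The means were 8508 ± 1341 TPM in WT and 7846 ± 560 TPM in KO (SD, n = 3 each), a difference smaller than the SD within WT. The glucose transporters together were at 148, 119 and 101 TPM in WT and at 77.0, 107 and 95.2 TPM in KO, so their extremes were 1.93 times apart, with the same libraries at the ends.

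**Figure D4:**
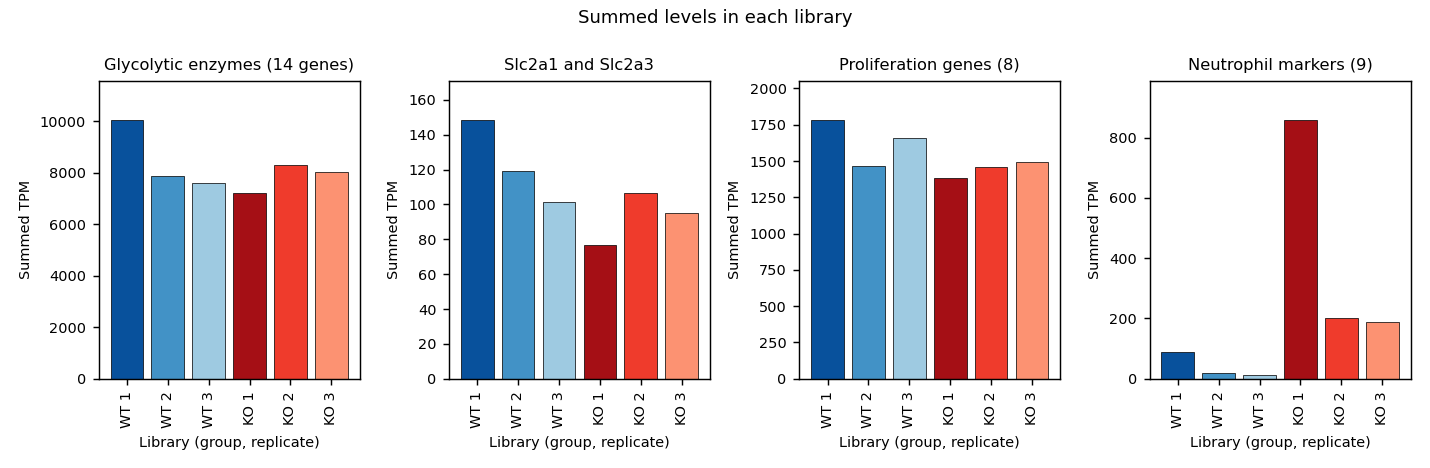
Summed TPM in each library of the 14 glycolytic enzyme genes, of the 2 glucose transporters, of 8 proliferation genes and of 9 neutrophil markers. Each bar is 1 library, WT in blue and KO in red. WT replicate 1 is highest and KO replicate 1 lowest in the first 3 panels, while neutrophil markers reach 859 TPM in KO replicate 1 and stay between 12.8 and 89.99 TPM in WT.

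The make-up of the pathway by isoform can be compared in TPM. Ldha gave 97.0 to 97.8% of lactate dehydrogenase mRNA and Aldoa 99.6 to 99.8% of Aldoa plus Aldoc. Pfkp gave 71.5 to 75.2% of phosphofructokinase mRNA, Pfkl 22.0 to 25.6% and Pfkm 2.73 to 3.92%. Hk1 gave 79.3% of Hk1 plus Hk2 in WT replicate 1 and 81.5 to 83.7% in the other libraries. Slc2a1 gave 83.4 to 88.0% of both glucose transporters. The share of Slc16a3 in the lactate carriers was 61.0% in WT replicate 1, 50.6% in WT replicate 3 and 54.4 to 56.3% in the other libraries. WT and KO overlapped in every one of these shares. By mean WT TPM the set ran from Gapdh (2874 TPM), Ldha (1636 TPM), Aldoa (1056 TPM) and Eno1 (1041 TPM) down to Pfkm (8.70 TPM), Pdk1 (8.23 TPM), Car12 (7.72 TPM), Pfkfb4 (3.41 TPM), Aldoc (3.41 TPM) and Adm (0.435 TPM).

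Other genes of the pathways gave no edgeR call either. In the rest of glycolysis, 23 of 32 genes were tested, with 0 called in each direction and a median log2 fold change of 0.08. An unadjusted edgeR p under 0.05 was seen for 7 of them (30.4%, against 15.1% of all tested genes). The smallest p values belonged to Hk3, a hexokinase typical of myeloid cells (0.583, 0.575 and 0.603 CPM in WT, 1.96, 0.866 and 1.18 CPM in KO, a log2 difference of 1.196, edgeR adjusted p = 0.176), and to Slc2a8, a hexose transporter (-0.54, adjusted p = 0.185). Hk3 was highest in KO replicate 1, where the neutrophil markers were highest. Of the pentose phosphate and glycogen genes 15 of 15 were tested, with 0 called, 2 at an unadjusted p under 0.05 (13.3%) and a median of 0.03. They were led by Pygl, the liver glycogen phosphorylase gene, at 0.895 to 1.86 CPM in WT and 12.6, 4.00 and 3.94 CPM in KO (edgeR adjusted p = 0.127, DESeq2 adjusted p = 9.78e-06). Next came Pgm2 (log2 fold change -0.19, edgeR adjusted p = 0.267). Pygl too was highest in KO replicate 1. The part of other cells in Hk3 and Pygl was not tested.

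Of the HIF pathway genes 15 of 17 symbols were tested, with 0 called, 0 at an unadjusted p under 0.05 and a median of 0.00. Arnt, the partner of HIF-1 alpha, had a log2 fold change of 0.08 and Egln1, the main HIF prolyl hydroxylase, of -0.13 (edgeR adjusted p = 0.499 and 0.501). Among 28 tested further hypoxia targets 0 were called, with a median of -0.09. An unadjusted edgeR p under 0.05 was seen for 5 (17.9%, against 15.1% of all tested genes). Nrn1, the neuritin gene, was nearest to the threshold, at 16.0, 11.9 and 12.0 CPM in WT and 8.08, 6.45 and 7.21 CPM in KO (log2 fold change -0.87, SE 0.15, edgeR adjusted p = 0.0526, DESeq2 adjusted p = 2.97e-05). Hmox1, the heme oxygenase gene that macrophages also express, was at 14.4 to 19.3 CPM in WT and 22.7 to 29.8 CPM in KO (0.67, edgeR adjusted p = 0.0894, DESeq2 adjusted p = 0.000491). The 16 tested regulators of glycolysis, with 0 called, 0 at an unadjusted p under 0.05 and a median of 0.04, included Txnip, an inhibitor of glucose uptake, at 0.21, and Esrra, a nuclear receptor of energy metabolism, at 0.16 (edgeR adjusted p = 0.352 and 0.428). DESeq2, which called 527 genes in all, called 2 further hypoxia targets (Nrn1 and Hmox1), 1 pentose phosphate and glycogen gene (Pygl) and 0 in the other lists of the pathways, and limma on log2(TPM + 1) called 0 in each.

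Counts with decimals were seen in at least 1 library for 11 of the 33 genes: Gpi1, Pfkl, Pfkp, Pfkfb3, Aldoa, Gapdh, Eno1, Slc16a3, Pdk1, Vegfa and Ankrd37. Levels of these 11 are uncertain where reads could be divided between genes. Gapdh and other glycolytic genes have near-identical processed copies in the mouse genome. For Pdk1 the decimals occurred in KO replicate 3 alone. The sources used here do not say whether counting used strand. Reads in a stretch shared with a listed gene on the opposite strand thus cannot be told apart from that partner's. Such pairs include Pfkp with Pitrm1, Pfkm with Senp1, Tpi1 with Spsb2, Gapdh with Iffo1 and Ankrd37 with Ufsp2. Over all libraries Spsb2 summed to 299 counts and Iffo1 to 5512. Tpi1 had at least 11302 counts and Gapdh at least 65427 in each single library.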

How the data were processed

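Bulk RNA libraries of sorted iTregs, 3 WT and 3 KO, were grouped by the sample titles. Per the submitters' processing notes FastQC, a read quality check, and HISAT2, an aligner, were used, without versions. The sources used here name no counting program, annotation or genome build. Per the file headers the authors deposited estimated counts per gene and TPM for each library, and between 23.5 and 25.2% of genes had counts with decimals.

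Expected counts were rounded. Genes were kept by edgeR's filterByExpr (12768 kept, 9131 not), libraries were scaled by TMM (factors 0.988 to 1.01), and KO and WT were compared in edgeR 4.0.16 (robust quasi-likelihood fit, genotype only, two-sided). P-values were adjusted by Benjamini-Hochberg over all tested genes (threshold 0.05). SEs are the log2 fold change over the root of F. CPM are TMM-scaled. TPM were used for levels between genes and for limma 3.58.1 on log2(TPM + 1) and log2(TPM + 0.1). DESeq2 1.42.0, other normalization and filters, the replicate block and leaving out each library were alternatives. The main fit took the samples as unpaired, and only the replicate block paired them by the replicate numbers in the labels. Deviations from the group means correlated across genes at 0.192, 0.111 and 0.103 for numbers 1, 2 and 3. WT replicate 2 correlated with KO replicate 3 at 0.130 and WT replicate 3 with KO replicate 2 at 0.067, so numbers 2 and 3 are not singled out as pairs.

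The script was tested on simulated data. The members and lists were chosen with earlier results of these data known. Every member was named, and in each other list the genes past the threshold or, with none, the 2 of smallest p; Egln3, Bnip3, Ak4, P4ha2, Metap1d, Rapgef4 and Itga6 were chosen after their values were seen. R 4.3.3, Python 3.11.15, pandas 2.3.3, numpy 2.4.6 and matplotlib 3.10.9 were used.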

Additional observations from a re-analysis of the deposited data

How the results depend on the processing

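Among the 33 genes edgeR and each alternative tool, scaling, filter, block or single left-out library made 0 calls, and 2 were called, Pdk1 and Hif1a, without replicate 1 of both groups. Over all genes 86 were called, against 527 by DESeq2, 133 with no low-count filter, 56 with the stricter filter (at least 1 CPM in all 6 libraries), 39 by limma on log2(TPM + 1), 177 with the replicate block, 538 without replicate 1 of both groups, 8 with KO replicates 2 and 3 summed as 1 library and 4 to 93 when single libraries were left out. Leaving out replicate 1 of both groups and summing KO replicates 2 and 3 were chosen after seeing the data. Dlst passed by DESeq2 (-0.264, adjusted p = 0.00182) and without replicate 1 of both groups (-0.209, edgeR adjusted p = 0.0323), and leaving out single libraries put it at -0.282 to -0.226. The median log2 fold change of -0.166 over the 33 genes became 0.061 without replicate 1 of both groups, that of the 23 genes of glucose use went from -0.144 to 0.071, and that of the 10 hypoxia genes from -0.224 to 0.019. Leaving out single libraries gave -0.222 to 0.015 for the 33, -0.211 to 0.015 for the 23 and -0.303 to -0.023 for the 10, with the upper end of each without WT replicate 1. The cause was not tested.

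Without replicate 1 of both groups 15 genes changed sign: Aldoa (0.090), Ankrd37 (0.090), Eno1 (0.124), Gapdh (0.044), Higd1a (0.070), Hilpda (0.024), Hk2 (0.005), Ldha (0.077), Pfkfb3 (0.104), Pfkl (0.071), Pgam1 (0.036), Pgk1 (0.042), Pkm (0.148), Slc16a3 (0.147) and Tpi1 (0.142). Vegfa did so on log2(TPM + 1) (-0.040), on log2(TPM + 0.1) (-0.041) and with KO replicates 2 and 3 summed (-0.024). With single libraries left out, the log2 fold changes that changed sign ranged from -0.211 to 0.015 for Aldoa, -0.504 to 0.055 for Ankrd37, -0.110 to 0.070 for Eno1, -0.206 to 0.010 for Gapdh, -0.025 to 0.139 for Gpi1, -0.239 to 0.016 for Higd1a, -0.047 to 0.056 for Ldhb, -0.095 to 0.089 for Pfkfb3, -0.30 to 0.015 for Pfkl, -0.031 to 0.126 for Pfkm, -0.196 to 0.078 for Pkm, -0.387 to 0.032 for Slc16a3, -0.364 to 0.057 for Tpi1 and -0.043 to 0.055 for Vegfa. Adm was not tested under the stricter filter. The replicate block changed no call and no sign among the 33. Depth limits Adm, with at most 19 counts in a library.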

Other observations

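Some hypoxia genes outside the set, chosen after their values were seen, had WT replicate 1 or KO replicate 1 at an end. Ak4, a mitochondrial adenylate kinase gene, was at 27.1, 14.02 and 10.0 CPM in WT and at 7.85, 13.1 and 10.9 CPM in KO. Bnip3, a mitophagy receptor gene, was at 48.3, 34.1 and 23.6 CPM in WT and at 20.7, 32.8 and 29.6 CPM in KO. In both the remaining 4 libraries overlapped. P4ha2, a collagen prolyl hydroxylase gene, was lowest in KO replicate 1 (0.958 CPM) and highest in WT replicate 1 (4.58 CPM). Egln3, a HIF prolyl hydroxylase that hypoxia induces, differed from these: it was at 199.8, 381 and 331 CPM in WT and at 175, 279 and 255 CPM in KO, so replicate 1 was the lowest library of each group. Over the 28 tested further hypoxia targets, 9 were highest in WT replicate 1 and lowest in KO replicate 1 (32.1%, against 10.0% of all tested genes), and over the 15 HIF pathway genes 2 were (13.3%).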
